A study of Mus musculus with 20 samples.

Results

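The miR-200 family of microRNAs (miRNAs) was examined in small RNA sequencing libraries of primary midbrain neuron cultures from C57Bl6/J mouse embryos. Its members were all rows of the count files named for miR-200a, miR-200b, miR-200c, miR-141 or miR-429. These are 10 mature arms of the 1886 mature miRNAs in each file, a 3p and a 5p arm for each of 5 hairpins. Of the 10 arms, 8 had at least 1 read, as did 1581 of the 1886 rows. None of the 10 passed the filter on low counts, which kept 542 miRNAs, so arm-level comparisons below come from a fit without that filter.

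The ventral mesencephalon of embryos at day 12.5 was dissociated without its meninges and grown in serum-free Neurobasal-A medium with B27. The 4 groups of 5 libraries were cells on day 5 in vitro with 10 ng/ml GDNF (DIV5 GDNF), day 5 without it (DIV5 control), day 1 with 10 ng/ml GDNF (DIV1 GDNF) and day 1 without it (DIV1 control). GDNF is the glial cell line-derived neurotrophic factor, a survival factor of dopaminergic neurons, and the series asks what it does to the miRNAs on each day. All 4 groups share strain, stage and medium, and the labels give no further purification of neurons. They do not say whether replicates were separate litters or cultures, so p-values measure only the spread between these libraries.

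miRNAs guide silencing complexes to messenger RNAs mainly through the seed, bases 2 to 8 of the mature strand. The miR-200 family is best known from epithelia, where it represses the transcription factors Zeb1 and Zeb2 and is repressed by them in turn. In the nervous system it is known from olfactory neurogenesis. In the mouse midbrain and hindbrain it has been placed in a feedback loop with Sox2, a factor of neural stem cells, and the cell cycle factor E2F3. Neither Zeb, Sox2 nor E2f3 messenger RNA was measured here.

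The 3p arms are shown because they carried nearly all family reads and fall into 2 seed classes. The mature sequences are those of RefSeq on GRCm38.p6, 5′ to 3′, with the seed in capitals.
mmu-miR-141-3p: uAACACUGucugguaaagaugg
mmu-miR-200a-3p: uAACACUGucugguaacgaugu
mmu-miR-200b-3p: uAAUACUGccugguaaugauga
mmu-miR-200c-3p: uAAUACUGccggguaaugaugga
mmu-miR-429-3p: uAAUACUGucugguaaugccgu
miR-141-3p and miR-200a-3p share 1 seed, and miR-200b-3p, miR-200c-3p and miR-429-3p share the other. The classes differ within the seed by C4U, counted from 1 at the 5′ end and written from miR-141-3p to miR-200b-3p. No other mature mouse miRNA of the RefSeq table had either seed. Within a class the arms are close: miR-141-3p and miR-200a-3p differ by A17C and G22U, and miR-200b-3p and miR-200c-3p by U11G and A22G. A read of one can therefore be placed on the other by errors at 2 bases, and how mismatched reads were treated is not given in the sources used here.

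The genes lie in 2 clusters, both on the minus strand of GRCm38, the assembly also called mm10. Mir200b (chr4:156055681-156055750), Mir200a (chr4:156054896-156054985) and Mir429 (chr4:156053905-156053987) span 1846 bp. All of this cluster lies within the annotated bounds of Ttll10 and of the non-coding transcript Gm13648, and Mir429 overlaps an exon of Gm13648. Mir200c (chr6:124718322-124718390) and Mir141 (chr6:124717914-124717985) span 477 bp and lie within the bounds of the non-coding gene Gm15884. Each seed class therefore draws on both chromosomes.

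Seed matches were looked up in the 3′ untranslated regions of Sox2 and E2f3, the targets named for this family in midbrain progenitors. The match to the seed of miR-200b, miR-200c and miR-429 is CAGTATT, and that to the seed of miR-141 and miR-200a is CAGTGTT, read on the transcript strand only. In the GENCODE vM21 annotation Sox2 had 1 CAGTATT and no CAGTGTT in 1086 bases. The longest E2f3 region, of 3328 bases on the minus strand, had 2 of each. The matches are shown in capitals with the bases before them.
Sox2, chr3:34651830-34651836: tatttgcaagcaacttttgtaCAGTATTt
E2f3, chr13:29907442-29907448: acacaaagtagatgagtactaCAGTATTt
E2f3, chr13:29907015-29907021: ctctgtctgtaaatagaatcgCAGTATTt
E2f3, chr13:29909829-29909835: cggaatcagaaacgtgtatcgCAGTGTTg
E2f3, chr13:29907275-29907281: ggcaacacatgagctgtcaaaCAGTGTTa
Of the 20832 genes with an annotated 3′ untranslated region, 13.4% held CAGTATT and 17.3% held CAGTGTT. A match of these letters is a description of the sequence and no evidence of binding.

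The family was close to the limit of detection. Over the 20 libraries it had 204 reads of 39327853 counts, which is 0.000519% of all counts. Each of the 20 libraries held at least 1 family read. The libraries held 1781030 to 3983722 counts in DIV5 GDNF, 1061619 to 4324505 in DIV5 control, 420118 to 1761023 in DIV1 GDNF and 686793 to 1557885 in DIV1 control. Levels are given as CPM, the count divided by the library's total after scaling by the trimmed mean of M values (TMM). In these units 1 read stood for 0.198 to 2.60 CPM, depending on the library. An arm with 0 reads in a library could thus be present at up to 0.593 (deepest library) to 7.79 CPM (shallowest), the worth of 3 reads. DIV5 libraries were mostly deeper, so a read weighed more in most DIV1 libraries, but not in all. It was worth 0.987 CPM in DIV5 control library 2 and 0.622 CPM in DIV1 GDNF library 3. Depth also differed within DIV5, with 1061619 to 1907937 counts in replicates 1 and 2 and 2969524 to 4324505 in replicates 3 to 5. Reads without a feature were 17.7% to 19.5% in the former and 9.51% to 13.3% in the latter. What set these replicates apart was not tested. These limits and the intervals below cover counting error only, because the reads carry no molecular identifiers and PCR copies count separately.

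miR-141-3p was the most abundant arm, with 101 reads in 18 of 20 libraries and a mean of 2.86 ± 1.88 CPM (SD, n = 20). It ranked 601st by mean level, so 600 miRNAs stood above it. The lowest mean of a miRNA that passed the filter was 3.03 CPM, and the median of those that passed was 58.1 CPM. miR-200b-3p followed with 35 reads in 14 libraries and 0.835 ± 0.857 CPM. miR-200c-3p had 24 reads in 10 libraries (0.764 ± 1.05 CPM), and miR-200a-3p had 20 reads in 11 libraries (0.528 ± 0.609 CPM). miR-429-3p had 10 reads in 8 libraries, with 0.241 ± 0.386 CPM. The median miRNA with any read had 30 reads over the 20 libraries.

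Pooled over all libraries, miR-141-3p had 2.45 CPM with an exact 95% Poisson interval of 2.00 to 2.98. This interval lay above that of miR-200b-3p (0.849 CPM, 0.591 to 1.18). The neighbours below were not separated by counting error: miR-200c-3p had 0.582 CPM (0.373 to 0.866) and miR-200a-3p 0.485 CPM (0.296 to 0.749). miR-429-3p had 0.243 CPM (0.116 to 0.446), which lay below the interval of miR-200b-3p but overlapped those of miR-200c-3p and miR-200a-3p.

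**Figure D1:**
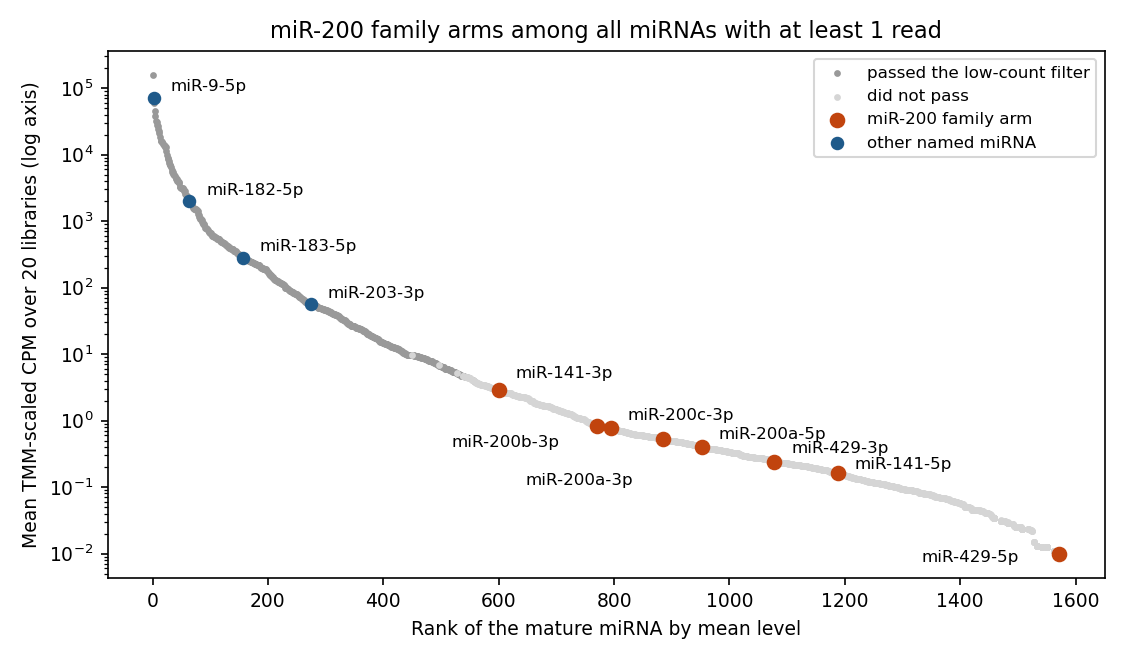
Mean TMM-scaled CPM over 20 libraries (log axis) against rank for the 1581 miRNAs with at least 1 read; dark grey points passed the low-count filter, light grey points did not, orange points are miR-200 family arms and blue points are other miRNAs named in the text. The 8 detected family arms lie between rank 601 (miR-141-3p) and rank 1572 (miR-429-5p), all among miRNAs that did not pass.

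The 5p arms, the opposite strands of the hairpins, were rarer still, with 14 of the 204 reads (6.86%, Wilson 95% interval 4.13 to 11.2). Of these, 10 came from miR-200a-5p, 3 from miR-141-5p and 1 from miR-429-5p. In pooled reads the share of the 5p arm was higher for miR-200a than for miR-141. The 5p arm held 10 of 30 miR-200a reads (33.3%, 19.2 to 51.2) but 3 of 104 miR-141 reads (2.88%, 0.986 to 8.14). The interval of miR-429, with 1 of 11 reads (9.09%, 1.62 to 37.7), overlapped both. These intervals take pooled reads as independent and leave out the spread between libraries, so their separation is no test. miR-200b-5p and miR-200c-5p had 0 reads in every library. Those counts of 0 allow up to 0.192 CPM in DIV5 GDNF, 0.187 in DIV5 control, 0.621 in DIV1 GDNF and 0.638 in DIV1 control (3 reads over the group).

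By locus, the chromosome 6 pair of miR-141 and miR-200c held 128 of the 204 family reads (62.7%, Wilson interval 55.9 to 69.1). The chromosome 4 cluster held 76 reads (37.3%, 30.9 to 44.1). By seed, miR-141-3p and miR-200a-3p held 121 reads (59.3%), against 69 (33.8%) for miR-200b-3p, miR-200c-3p and miR-429-3p.

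**Figure D2:**
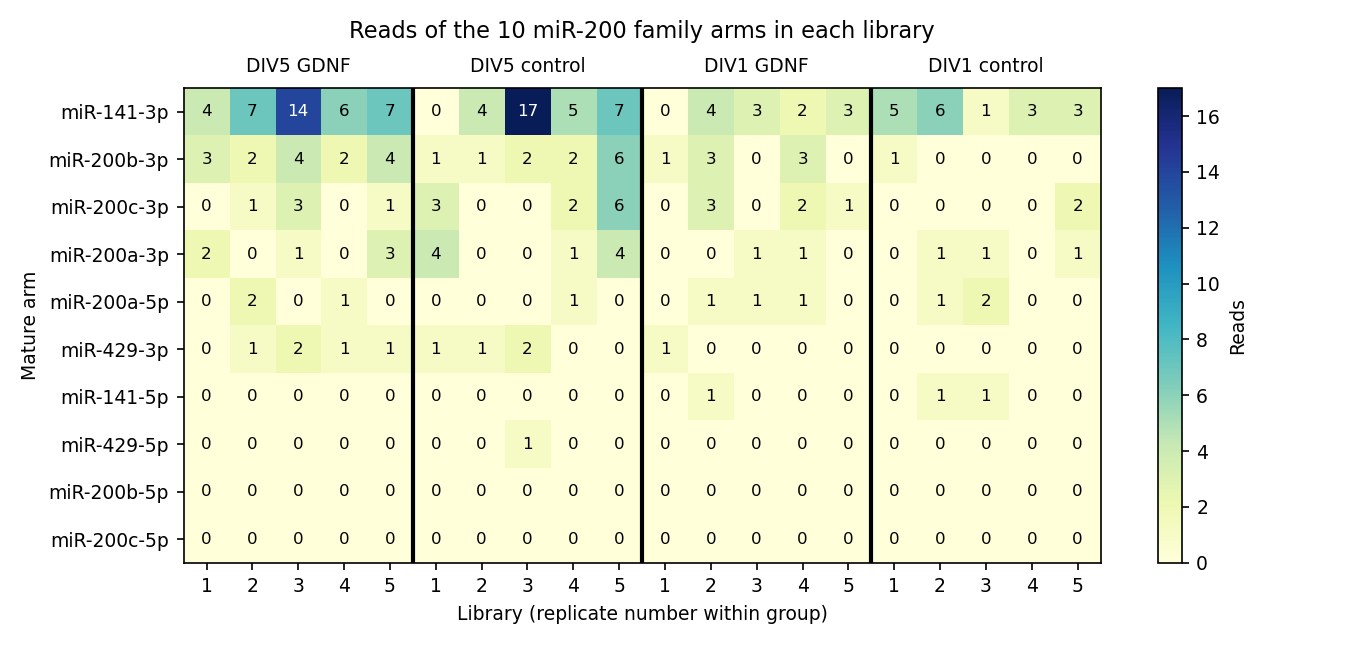
Deposited read counts of the 10 family arms (rows) in each of the 20 libraries (columns, grouped as DIV5 GDNF, DIV5 control, DIV1 GDNF and DIV1 control). The highest count of any arm in 1 library was 17 reads of miR-141-3p, and miR-200b-5p and miR-200c-5p had 0 throughout.

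In each group the family total was a few CPM and the libraries overlapped. Summed over the 10 arms, the level was 4.94 ± 1.92 CPM in DIV5 GDNF (72 reads), 4.57 ± 0.965 in DIV5 control (71 reads), 7.20 ± 3.95 in DIV1 GDNF (32 reads) and 6.49 ± 2.43 in DIV1 control (29 reads; SD, n = 5 each). The lowest and highest libraries were at 2.49 and 7.59 CPM in DIV5 GDNF, 3.33 and 5.92 in DIV5 control, 2.78 and 10.8 in DIV1 GDNF, and 3.92 and 9.29 in DIV1 control. In bulk cultures, fewer cells that make a miRNA and less of it per cell cannot be told apart.

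miR-141-3p had 4, 7, 14, 6 and 7 reads in DIV5 GDNF libraries 1 to 5 and 0, 4, 17, 5 and 7 in DIV5 control libraries. It had 0, 4, 3, 2 and 3 reads in DIV1 GDNF libraries and 5, 6, 1, 3 and 3 in DIV1 control libraries. Scaled, these are 2.00, 4.09, 3.47, 1.50 and 1.82 CPM in DIV5 GDNF, 0, 3.95, 3.36, 1.51 and 1.53 in DIV5 control, 0, 3.59, 1.87, 1.99 and 7.79 in DIV1 GDNF, and 3.37, 5.49, 1.40, 3.92 and 4.64 in DIV1 control. All 4 ranges overlap, and the highest level, in DIV1 GDNF library 5, rests on 3 reads of the shallowest library. The group means were 2.57 ± 1.13, 2.07 ± 1.59, 3.05 ± 2.94 and 3.76 ± 1.55 CPM in DIV5 GDNF, DIV5 control, DIV1 GDNF and DIV1 control.

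miR-200b-3p had 3, 2, 4, 2 and 4 reads in DIV5 GDNF and 1, 1, 2, 2 and 6 in DIV5 control. At DIV1 it had 1, 3, 0, 3 and 0 reads with GDNF and 1, 0, 0, 0 and 0 without. It was thus seen in 5 of 5 libraries of each DIV5 group, in 3 of 5 of DIV1 GDNF and in 1 of 5 of DIV1 control. Its mean level was 1.04 ± 0.363 CPM in DIV5 GDNF, 0.753 ± 0.385 in DIV5 control, 1.41 ± 1.42 in DIV1 GDNF and 0.135 ± 0.301 in DIV1 control. Detection follows depth as well as level: 1 read was worth 0.248 to 0.584 CPM in DIV5 GDNF and 0.673 to 1.55 CPM in DIV1 control.

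miR-200c-3p, which shares its seed with miR-200b-3p, had 0, 1, 3, 0 and 1 reads in DIV5 GDNF and 3, 0, 0, 2 and 6 in DIV5 control. It had 0, 3, 0, 2 and 1 reads in DIV1 GDNF and 0, 0, 0, 0 and 2 in DIV1 control. miR-200a-3p, which shares its seed with miR-141-3p, had 2, 0, 1, 0 and 3 reads in DIV5 GDNF and 4, 0, 0, 1 and 4 in DIV5 control. At DIV1 it had at most 1 read in any library, 2 in all with GDNF and 3 without. Both arms had libraries at 0 in all 4 groups. miR-429-3p had 5 reads in DIV5 GDNF, 4 in DIV5 control, 1 in DIV1 GDNF and 0 in DIV1 control.

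**Figure D3:**
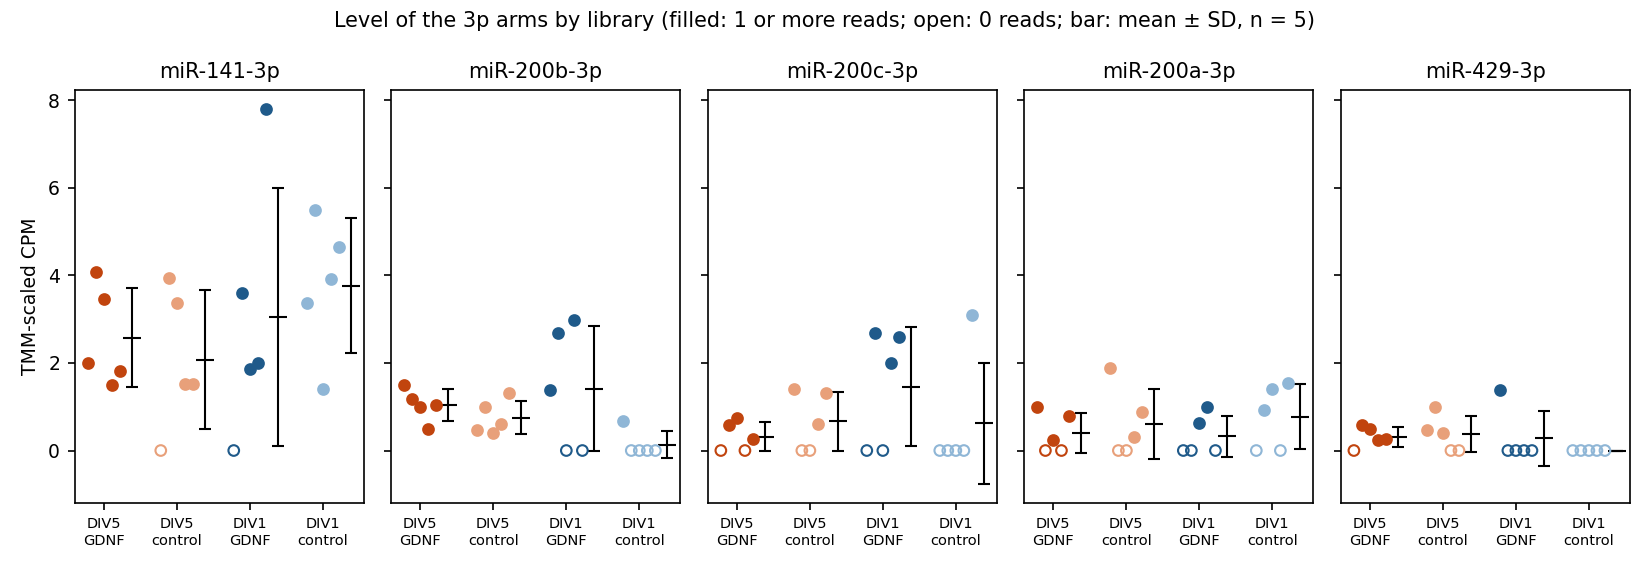
TMM-scaled CPM of the 5 3p arms in each library, by group from DIV5 GDNF to DIV1 control; filled circles had at least 1 read, open circles 0 reads, and bars give the mean ± SD of 5 libraries. For each arm the ranges of the 4 groups overlap, and the highest point is miR-141-3p at 7.79 CPM in a DIV1 GDNF library.

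GDNF against control at DIV1 gave no called change of a family arm. Over all miRNAs that passed the filter, edgeR called 0 of 542 (0%, 7 with an unadjusted p under 0.05). Without the filter it called 0 of 1581 (0%, 53 with an unadjusted p under 0.05), and 0 of the 8 family arms, of which 1 had an unadjusted p under 0.05. Neither DESeq2 nor limma voom called any of the 8. The arm with the low unadjusted p was miR-200b-3p, with 7 reads in DIV1 GDNF against 1 in DIV1 control. The ratio of pooled levels was 6.82 with an exact 95% counting interval of 0.876 to 307, and the log2 fold change was 2.52 (SE 1.20, edgeR unadjusted p = 0.0395, adjusted p = 0.91). In 3 of the 5 DIV1 GDNF libraries it lay above the highest DIV1 control library (0.673 CPM), and in the other 2 it had 0 reads. That control library and DIV1 GDNF library 1 (1.39 CPM) each held 1 read, so they differed only in scaled depth. The size of this fitted change turns on 1 read: without DIV1 control library 1 the controls had 0 reads and the log2 value was 4.66, which is no bound.

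miR-200c-3p pointed the same way at DIV1, with 6 reads in DIV1 GDNF against 2 in DIV1 control (ratio 2.92, 0.522 to 29.6, edgeR adjusted p = 0.91). miR-141-3p did not, with 12 reads in DIV1 GDNF against 18 in DIV1 control (ratio 0.649, 0.285 to 1.42). Its log2 fold change was -0.57 (SE 0.642, edgeR adjusted p = 1). miR-200a-3p had a ratio of 0.649 (0.0542 to 5.67). By seed, the class of miR-200b, miR-200c and miR-429 held 14 of 32 reads in DIV1 GDNF (43.8%, Wilson interval 28.2 to 60.7) and 3 of 29 in DIV1 control (10.3%, 3.58 to 26.4). At DIV5 it held 25 of 72 reads in DIV5 GDNF (34.7%, 24.8 to 46.2) and 27 of 71 in DIV5 control (38.03%, 27.6 to 49.7). The Wilson intervals take pooled reads as independent and leave out the spread between libraries, so their separation at DIV1 is no test. The DIV1 contrast was picked after its values were seen and is given with no test. By library at DIV1 the class summed to 3.15 ± 2.16 CPM in DIV1 GDNF and 0.754 ± 1.34 CPM in DIV1 control (n = 5 each), and both groups had libraries at 0.

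GDNF against control at DIV5 also gave no called family arm. With the filter edgeR called 1 of 542 miRNAs (0.185%, 88 with an unadjusted p under 0.05), which was miR-182-5p, named in the series title and no family member. Without the filter it called 0 of 1581 (0%, 153 with an unadjusted p under 0.05). Same-numbered DIV5 libraries deviated together, and with the replicate number as a block edgeR called 3 of 542 with the filter (0.554%) and 38 of 1581 without it (2.4%), again with 0 family arms among them. Of the 8 family arms tested without the filter, 0 had an unadjusted p under 0.05 and 0 were called by edgeR, DESeq2 or limma voom, where DESeq2 gave no adjusted p for 7. miR-141-3p had 38 reads in DIV5 GDNF against 33 in DIV5 control, a ratio of 1.19 (0.725 to 1.95) and a log2 fold change of 0.31 (SE 0.489, edgeR adjusted p = 0.921). miR-200b-3p had 15 against 12, a ratio of 1.29 (0.563 to 3.01, edgeR adjusted p = 0.924). This was the best covered comparison, and the intervals of both arms include 1.

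DIV5 control libraries 1 and 5 stood apart from the other DIV5 libraries in miR-7a-5p, a miRNA of neuroendocrine cells and neurons. It had 2287 and 4534 CPM in them and at most 304.0 CPM in the other 8 DIV5 libraries. The same 2 libraries held 9 of the 11 miR-200c-3p reads and 8 of the 9 miR-200a-3p reads of DIV5 control, but 7 of its 33 miR-141-3p reads, all 7 of them in library 5. They held 7 of the 12 miR-200b-3p reads and 1 of the 4 miR-429-3p reads. For scale, these libraries had 1838544 and 4022828 of the 14217020 counts of DIV5 control, and 32 of its 71 family reads. The family as a whole did not stand apart in them, at 4.24 and 5.02 CPM against 5.92, 4.35 and 3.33 CPM in DIV5 control libraries 2, 3 and 4. With libraries 1 and 5, miR-200c-3p had a DIV5 GDNF to DIV5 control ratio of 0.469 (0.128 to 1.46, edgeR adjusted p = 0.673) and miR-200a-3p one of 0.687 (0.201 to 2.16, edgeR adjusted p = 0.921). Without them the ratios were 1.50 (0.246 to 15.8) and 3.61 (0.438 to 166), on 2 and 1 control reads. The direction of both ratios therefore turned on these libraries. miR-141-3p turned as well, to 0.878 (0.520 to 1.51). What set these libraries apart was not tested. The call of miR-182-5p was also lost without them (edgeR adjusted p = 0.0193 with and 0.053 without). Its direction did not turn, with a log2 fold change of 1.46 with them and 1.36 without.

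**Figure D4:**
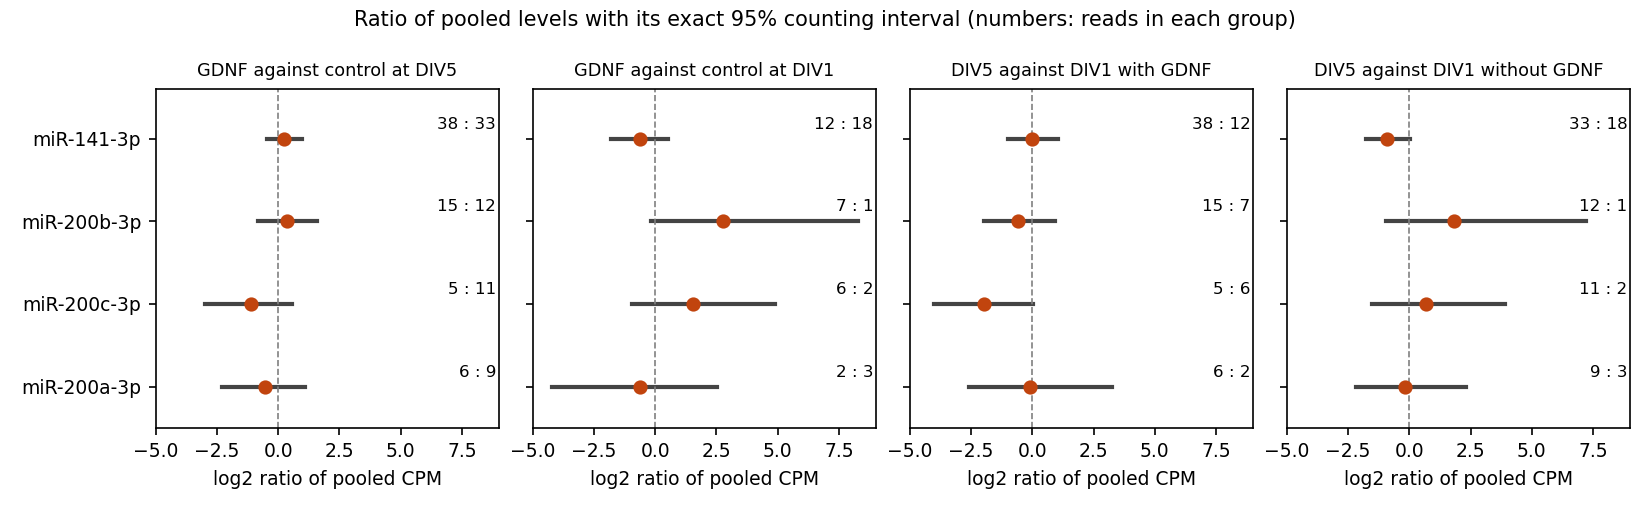
Log2 ratio of pooled CPM for the 4 most abundant arms, with the exact 95% counting interval (line) and the reads of both groups beside it, the group named first in the panel title on the left. Each of the 16 intervals includes 0, and the widest belongs to miR-200b-3p for GDNF against control at DIV1.

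Between the days many miRNAs changed, but no family arm was called by edgeR. For DIV5 control against DIV1 control edgeR called 329 of 542 miRNAs with the filter (60.7%, 170 higher and 159 lower at DIV5) and 357 of 1581 without it (22.6%). Of the 8 family arms 0 were called. The 22.6% covers miRNAs of all levels, while the 8 arms had 1 to 101 reads over the 20 libraries. At such counts the absence of calls does not show that the family was unchanged. Unadjusted p was under 0.05 for 2 of the 8 arms. These were miR-141-5p, with 0 reads at DIV5 against 2 at DIV1 (edgeR adjusted p = 0.0624), and miR-200a-5p, with 1 against 3 (edgeR adjusted p = 0.135). DESeq2 called 0, with no adjusted p for 4 arms. limma voom called 3 arms lower at DIV5, miR-141-5p, miR-200a-5p and miR-429-5p, which had 0 to 3 reads a group. The single read of miR-429-5p was in a DIV5 control library, so its call as lower goes against its reads. miR-141-3p had 33 reads in DIV5 control against 18 in DIV1 control. At 2.05 and 3.83 pooled CPM this is a ratio of 0.536 (0.293 to 1.01) and a log2 fold change of -0.92 (SE 0.558, edgeR adjusted p = 0.271). miR-200b-3p had 12 reads in DIV5 control against 1 in DIV1 control, a ratio of 3.51 (0.519 to 150) and a log2 fold change of 1.58 (edgeR adjusted p = 0.398). Without DIV1 control library 1, which held that read, the log2 value was 3.75 (edgeR adjusted p = 0.185), which is no bound.

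With GDNF, edgeR called 284 of 542 miRNAs between the days with the filter (52.4%) and 286 of 1581 without it (18.1%). Of the 8 family arms 0 were called and 0 had an unadjusted p under 0.05, where the 18.1% again covers miRNAs of all levels. DESeq2 called 0, with no adjusted p for 3 arms, and limma voom called the same 3 arms lower. Among these, miR-429-5p had 0 reads in both DIV5 GDNF and DIV1 GDNF, so its call rests on no read of the arm. miR-141-3p had 38 reads in DIV5 GDNF against 12 in DIV1 GDNF, a ratio of 0.981 (0.502 to 2.06, edgeR adjusted p = 1). miR-200b-3p had a ratio of 0.664 (0.255 to 1.92, edgeR adjusted p = 0.651). The lowest ratio among the 3p arms was that of miR-200c-3p, 0.258 on 5 against 6 reads (0.0623 to 1.01, edgeR adjusted p = 0.252).

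The difference of the GDNF effects at DIV5 and DIV1 was tested as an interaction. edgeR called 0 of 542 miRNAs with the filter (0%, 50 with an unadjusted p under 0.05) and 0 of 1581 without it (0%, 106 with an unadjusted p under 0.05). With the replicate block it called 0 of 542 (0%) and 5 of 1581 (0.316%). For the family 0 of 8 arms were called by edgeR, DESeq2, limma voom or edgeR with the block, and 0 had an unadjusted p under 0.05 in edgeR without it. The log2 difference was 0.88 for miR-141-3p (SE 0.807, edgeR adjusted p = 0.967) and -2.14 for miR-200b-3p (SE 1.40, edgeR adjusted p = 0.861). The miR-200b-3p value was -4.28 without DIV1 control library 1 (edgeR adjusted p = 0.764) and -0.73 in limma voom.

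miR-141-3p, the only arm with reads in at least 18 libraries, was also compared by a two-sided exact permutation test of log2(CPM + 0.5) over libraries. The test shuffled the libraries of a comparison freely and left out the pairing of DIV5 libraries by replicate number. The mean differences were 0.52 for GDNF at DIV5 (exact p = 0.405), -0.66 for GDNF at DIV1 (exact p = 0.429), -0.97 for DIV5 against DIV1 without GDNF (exact p = 0.159) and 0.22 with GDNF (exact p = 0.81). Adjusted over these 4 tests by Benjamini-Hochberg, p was between 0.572 and 0.81, and 5 libraries against 5 cannot give a p below 0.00794. At this depth no difference of miR-141-3p was detectable, and the counting intervals of its ratios extend from 0.285 at the lowest to 2.06 at the highest over the 4 comparisons.

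The level of the family was set beside other miRNAs of the same libraries. The family arms are 21 to 23 bases long, so CPM levels of mature miRNAs were compared without a correction for length. miR-9-5p, of neural progenitors and young neurons, averaged 71965 ± 11658 CPM and miR-124-3p, the main miRNA of neurons, 4225 ± 1924 CPM (SD, n = 20). miR-182-5p averaged 1984 ± 1312 CPM, 693 times the mean of miR-141-3p, and miR-183-5p 283 ± 176 CPM, 98.8 times. Both are miRNAs of sensory organs. Among miRNAs of epithelia, miR-203-3p of skin averaged 57.1 ± 13.8 CPM, 19.9 times miR-141-3p. miR-205-5p, found in squamous and glandular epithelia, was at the family's own level with 95 reads and 2.59 ± 2.32 CPM. miR-192-5p, of gut, liver and kidney, averaged 3270 ± 762 CPM.

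Lists of miRNAs of other cell types were counted with the filter in edgeR, with the median log2 fold change of DIV5 control against DIV1 control beside a median of 0.10 over all 542. Of 11 tested neuronal arms, 7 were higher and 3 lower at DIV5 (median 1.05), including miR-124-3p, which averaged 6060 ± 165 CPM in DIV5 control and 2357 ± 276 CPM in DIV1 control. Of 12 progenitor arms, 1 was higher and 9 lower (median -1.0), with miR-92b-3p among the lower. The most abundant of them, miR-9-5p, was not called, with a log2 fold change of -0.11 (edgeR adjusted p = 0.537). With GDNF it was not called either (edgeR adjusted p = 0.993). Of 5 epithelial arms outside the family, 2 were higher and 2 lower (median -0.39), and of 6 arms of multiciliated cells and choroid plexus 1 was higher and 1 lower (median -0.07). Of 9 sensory and neuroendocrine arms, 2 were higher and 5 lower (median -0.91), of 7 mesenchymal and vascular arms 0 and 4 (median -1.46), and of 4 blood arms 1 and 3 (median -2.17). The higher blood arm was the joint row of miR-486a-5p and miR-486b-5p, the most abundant of the list (log2 fold change 0.80, edgeR adjusted p = 0.000142). With GDNF the counts of higher and lower among the same tested arms were 5 and 2 (neurons), 0 and 10 (progenitors), 2 and 2 (epithelial), 1 and 1 (ciliated), 1 and 4 (sensory), 0 and 4 (mesenchymal) and 1 and 3 (blood). Over all 542 miRNAs edgeR called 170 higher and 159 lower without GDNF (60.7%), and 136 and 148 with it (52.4%). The lists are short, and a number of called arms near these shares is no result about a cell type. For GDNF against control 0 arms of these lists were called at DIV1 and 1 at DIV5, miR-182-5p of the sensory list, which the study itself singled out.

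Summed over its 11 arms, the epithelial list was at 4217 to 4936 CPM in DIV5 GDNF, 2931 to 4170 in DIV5 control, 2877 to 3334 in DIV1 GDNF and 2559 to 2998 in DIV1 control, with 0 of its arms at 0 reads. Most of this was miR-192-5p. The mesenchymal list summed to 318 to 3167 CPM in DIV5 GDNF, 640 to 1529 in DIV5 control, 2931 to 4400 in DIV1 GDNF and 2991 to 5110 in DIV1 control, with 1 of 11 arms at 0 reads. The blood list summed to 4227 to 6388 CPM in DIV5 GDNF, 3306 to 5351 in DIV5 control, 2359 to 3337 in DIV1 GDNF and 2262 to 3097 in DIV1 control. Its sum was thus higher at DIV5, although 3 of its 4 tested arms were lower. Whether any of these cells made the family reads was not tested.

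The miRNAs whose log2 level followed that of miR-141-3p most closely over 20 libraries were sought among 439 candidates with a mean of at least 10 CPM. They were miR-345-3p (Pearson r = 0.685), miR-30e-3p (0.617), miR-181a-1-3p (0.601), miR-181a-5p (0.586) and miR-709 (0.586), while the lowest r was -0.69. After the group means were subtracted, the 5 highest were miR-345-3p (0.788), miR-99a-3p (0.696), miR-181a-1-3p (0.688), miR-211-5p (0.643) and miR-30e-3p (0.643), with a lowest r of -0.734. miR-141-3p itself had an r of -0.168 with the summed rest of its family. All points share the depth of their libraries, and at 0 to 17 reads a library these values describe these counts only.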

How the data were processed

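Each library came as a deposited table of raw, unnormalized read counts for mature miRNAs. Per the submitters' processing notes, cutadapt 1.8.1, STAR 2.4.1d and HTSeq were used with mm10; the miRNA annotation is not given in the sources used here. In each file 5 tally lines were left out; reads without a feature were 9.51% to 22.6% of a library's total including them. Members and lists were chosen with earlier results of these data known. Named miRNAs are every family arm, miR-182-5p, miR-183-5p and the 5 closest to miR-141-3p in Pearson r. Some of the most abundant members of the lists are also named, but not those of every list. miR-203-3p and miR-205-5p were added after their values were seen.

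Counts were fitted in R 4.3.3 with edgeR 4.0.16 (filterByExpr, TMM factors and the robust quasi-likelihood fit and F test). The model had a coefficient for each group over 20 libraries and Benjamini-Hochberg adjustment over all miRNAs tested; a call is an adjusted p below 0.05, two-sided. Since no family arm passed the filter, arm values come from the same fit on all 1581 miRNAs with a read, with TMM factors from the 542 that passed. The SE is the log2 fold change divided by the square root of F. DESeq2 1.42.0 and limma 3.58.1 (voom) were alternatives. The code was tested on simulated data. Same-numbered DIV5 libraries deviated together across miRNAs (correlations 0.208 to 0.514 in 5 of 5 pairs), so the numbers pair them; the pairing comes from the data, not the labels. No libraries of a group were near-identical (lowest chi-square per degree of freedom 12.4).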

Additional observations from a re-analysis of the deposited data

Results flagged for a closer look

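Each arm in each group (40 sets, 26 with any read) and the family sum in each group (4 sets) were searched for a library far from the other 4. In 7 sets of 1 arm there was such a library, on 1 or 2 reads each. Chance flags about 1 in 20 groups, but an arm read in a single library of a group is flagged whatever its level, as in 6 of the 7, so their number cannot be read against that share. miR-200c-3p was at 3.10 CPM in DIV1 control library 5 (2 reads) and at 0 in the other 4. miR-200a-5p was at 1.17 CPM in DIV5 GDNF library 2 (2 reads) and at most at 0.249 in the others. A single read, with 0 in the other 4 libraries of the group, put miR-200a-5p at 0.303 CPM in DIV5 control library 4, miR-429-5p at 0.198 in DIV5 control library 3, miR-429-3p at 1.39 in DIV1 GDNF library 1, miR-141-5p at 0.898 in DIV1 GDNF library 2 and miR-200b-3p at 0.673 in DIV1 control library 1.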

How the results depend on the processing

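With the low-count filter, or a mean of at least 10 CPM, no family arm could be tested. Without a filter, 0 arms were called for GDNF at DIV5 (20 of 40 alternatives), for GDNF at DIV1 (18 of 36) and for the interaction (29 of 58). The remaining alternatives kept a filter and held no family arm, so they could not give a call. The fits without a filter used other scaling, DESeq2, limma voom or the replicate block. Others left out each library of the groups, or DIV5 control libraries 1 and 5. The compared groups alone were fitted for both GDNF comparisons, and DIV5 replicates 1 and 2 or 3 to 5 alone for GDNF at DIV5 and the interaction, also with 0. limma voom called 3 lower at DIV5 in both comparisons of the days: miR-141-5p, miR-200a-5p and miR-429-5p, with adjusted p of 0.00423, 0.02 and 0.0334 without GDNF and 0.00469, 0.0425 and 0.00514 with it. The call of miR-429-5p with GDNF was made on 0 reads in both groups and so shows no change of that arm. voom's median log2 value over all 1581 was -0.86 without GDNF and -0.95 with it, against 0 in edgeR. The cause of these calls was not tested. Leaving out 1 library gave 0 to 1 calls without GDNF: miR-141-5p without DIV1 control library 1 (edgeR adjusted p = 0.0457) and miR-200a-5p without DIV5 control library 4 (0.043).

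For miR-200b-3p, GDNF at DIV1 gave log2 values of 1.09 to 4.66 (adjusted p at least 0.684), 4.66 without the 1 control read. For miR-141-3p they were -0.94 to -0.34 (adjusted p at least 0.768), and for GDNF at DIV5 -0.18 (without DIV5 control libraries 1 and 5) to 0.97 (DIV5 replicates 1 and 2; 0.05 in 3 to 5). For miR-141-3p between the days with GDNF, -0.04 became 0.11 with library size only, 0.016 in DESeq2, 0.028 with the compared groups alone, 0.066 with a replicate block over all libraries, 0.017 without DIV5 control libraries 1 and 5, 0.23 with DIV5 replicates 1 and 2, and -0.25 to 0.36 with 1 library left out. miR-200b-3p there gave -1.03 to 0.031 with 1 library left out. Why these turned was not tested. The replicate block changed no call of a family arm; over all miRNAs without the filter it called 38 for GDNF at DIV5, 1 at DIV1 and 5 for the interaction, against 0 each without it. At DIV1 the check left the pairing of same-numbered libraries undecided (correlations 0.00625 to 0.474, 4 of 5 over 0.1). There 3 of 5 GDNF libraries correlated best with the control library of their own number, against 5 of 5 at DIV5. Among the 5 miRNAs closest to miR-141-3p, 4 were shared with a pseudocount of 0.1 and 3 with Spearman's rho. An arm had 0 to 17 reads in a library.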
